A study of Homo sapiens with 4 samples.

Results

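The genes described here are 39 members of the ATF4 amino acid response and the unfolded protein response, out of 17490 genes listed in at least 1 of 4 RNA libraries. They were taken as a fixed list of symbols, chosen with earlier results of these data known. All 39 were matched to NCBI Gene IDs and were listed in every library. The libraries come from H1975 and HCC827, established human lung adenocarcinoma cell lines that carry activating mutations of EGFR. H1975 was profiled as cells sensitive to osimertinib and as a resistant derivative (H1975OR), and HCC827 as cells sensitive to gefitinib and as a resistant derivative (HCC827GR). Both drugs inhibit the EGFR tyrosine kinase. Each of the 4 groups had 1 library. Each line was paired with its own drug, so in any difference between the lines, cell line and drug cannot be told apart. The sources used here do not say whether a resistant line is 1 clone, how it was derived, or whether drug was present at harvest.

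ATF4 is a transcription factor made when phosphorylation of eIF2alpha slows general translation, for example through the kinase PERK in the endoplasmic reticulum (ER) or GCN2 under amino acid shortage. Its targets supply amino acids, one-carbon units and charged tRNAs, and include regulators that restrain or end the response. The unfolded protein response also runs through the sensors IRE1 and ATF6, which raise ER chaperones and the machinery that removes misfolded proteins. ATF4 is controlled largely at translation and XBP1 by splicing, so gene-level RNA counts do not measure the activity of either protein. In tumour cells this network feeds serine and asparagine synthesis.

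The members were grouped by role into 5 stress sensors and their transcription factors, 10 regulators induced by ATF4, 7 enzymes of amino acid and one-carbon synthesis, 3 amino acid transporters, 7 tRNA synthetases, and 7 ER chaperones and ER-associated degradation genes. The 27 genes outside the first and last of these groups are called ATF4 targets below. Some of them also answer to other factors.

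Promoter sequences are shown for 4 members as examples of the elements searched, chosen with their values known. ASNS and CHAC1 are ATF4 targets that were lower in resistant HCC827 cells, and HSPA5 and HSP90B1 are ER chaperones that differed little in that line. The bases shown are the 250 before the RefSeq start site in GRCh38.p14, on the strand of the gene. Capitals mark a match to a response element, namely TGATGNAA on either strand in ASNS and CHAC1, and CCAAT with CCACG after a spacer of 9 bases, on either strand, in HSPA5 and HSP90B1.

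ASNS, chr7:97872409-97872658, minus strand: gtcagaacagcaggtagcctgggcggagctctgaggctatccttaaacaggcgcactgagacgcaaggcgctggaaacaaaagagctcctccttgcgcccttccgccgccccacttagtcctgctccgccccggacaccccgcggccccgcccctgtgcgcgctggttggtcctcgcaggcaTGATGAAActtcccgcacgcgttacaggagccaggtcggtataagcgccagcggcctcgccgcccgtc
CHAC1, chr15:40953221-40953470, plus strand: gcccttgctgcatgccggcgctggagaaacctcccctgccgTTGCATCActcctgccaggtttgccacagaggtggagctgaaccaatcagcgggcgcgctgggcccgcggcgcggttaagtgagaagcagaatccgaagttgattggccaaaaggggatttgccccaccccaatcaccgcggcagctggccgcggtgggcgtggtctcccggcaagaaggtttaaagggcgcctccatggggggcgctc
HSPA5, chr9:125241344-125241593, minus strand: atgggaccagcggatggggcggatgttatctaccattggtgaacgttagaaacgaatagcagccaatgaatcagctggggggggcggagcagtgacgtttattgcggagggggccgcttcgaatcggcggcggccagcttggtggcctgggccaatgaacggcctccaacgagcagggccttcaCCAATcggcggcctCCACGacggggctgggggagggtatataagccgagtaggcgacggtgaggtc
HSP90B1, chr12:103930160-103930409, plus strand: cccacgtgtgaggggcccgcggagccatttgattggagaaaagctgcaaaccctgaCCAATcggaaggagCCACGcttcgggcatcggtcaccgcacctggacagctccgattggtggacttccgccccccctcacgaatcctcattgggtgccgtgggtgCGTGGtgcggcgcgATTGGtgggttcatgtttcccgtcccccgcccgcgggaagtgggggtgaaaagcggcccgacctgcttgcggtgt

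The C/EBP-ATF core TGATGNAA lay 68 bases before the start in ASNS and 209 bases before it, on the opposite strand, in CHAC1. RefSeq promoter windows of 300 bases, of which 50 lie after the start, were found for 37 of the 39 members, all but NUPR1 and SHMT2. The core was present in windows of 9 of 25 ATF4 targets (AARS1, ASNS, CEBPG, CHAC1, GARS1, MARS1, NARS1, SLC3A2 and SLC7A1) and of 1 of 7 ER genes (HERPUD1). It was present for 4.46% of all 27305 genes with a window, and in 3.62% of all 35116 windows. ASNS and CHAC1 were the only carriers found among the 9 genes called lower in HCC827, of which NUPR1 could not be searched. The 7 other ATF4 targets with the core were not called, and NARS1, SLC7A1 and CEBPG had ratios above 0 in that line (for CEBPG with an interval that included 0), so the pair shown does not stand for the carriers or for the lower genes. The ER stress response element was present in 3 of 7 ER genes (HSPA5, HSP90B1 and CALR) and in XBP1, and in none of the ATF4 targets. It was present for 0.0916% of all genes with a window, and in 0.0769% of all windows. HSP90B1 held it 194 and 89 bases before the start and HSPA5 held it 66 bases before the start. Many genes have several windows, and a match describes the letters only.

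Depth was 22145163 and 22217897 expected counts in the sensitive and resistant H1975 libraries, and 10934558 and 11034837 in those of HCC827. Expected counts are estimated read counts per gene, and FPKM values are those counts scaled to transcript length and depth. All 6 epithelial marker genes checked, among them EPCAM and KRT8, were at 1 FPKM or more in 3 libraries, and 5 of 6 in resistant H1975. The summed level of this list went from 2991 to 1012 FPKM in H1975 and from 6933 to 2124 FPKM in HCC827, sensitive before resistant. Of 6 fibroblast markers, 1 or 2 reached 1 FPKM in any library (summed level 1.88 to 15.6 FPKM). Blood and endothelial markers summed to 79.2 to 101 FPKM, nearly all of it CD68, a lysosomal protein gene, while PTPRC, which defines blood cells, was at 0.27 to 0.50 FPKM. Lower epithelial marker RNA thus went with resistance in both lines, and its part in the results below was not tested. In bulk RNA, fewer cells of one kind and less RNA per cell cannot be told apart.

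Because every group is a single library, differences inside a line are unreplicated and carry no p-value. Each log2 ratio is resistant over sensitive within one line after scaling, followed in brackets by its exact 95% interval for counting error alone. Genes were called at a ratio of 2-fold or more with an interval that excluded 0. A gene was considered in a line if either library there reached 1 FPKM and 20 counts, and all 39 members were considered in both lines.

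**Figure D1:**
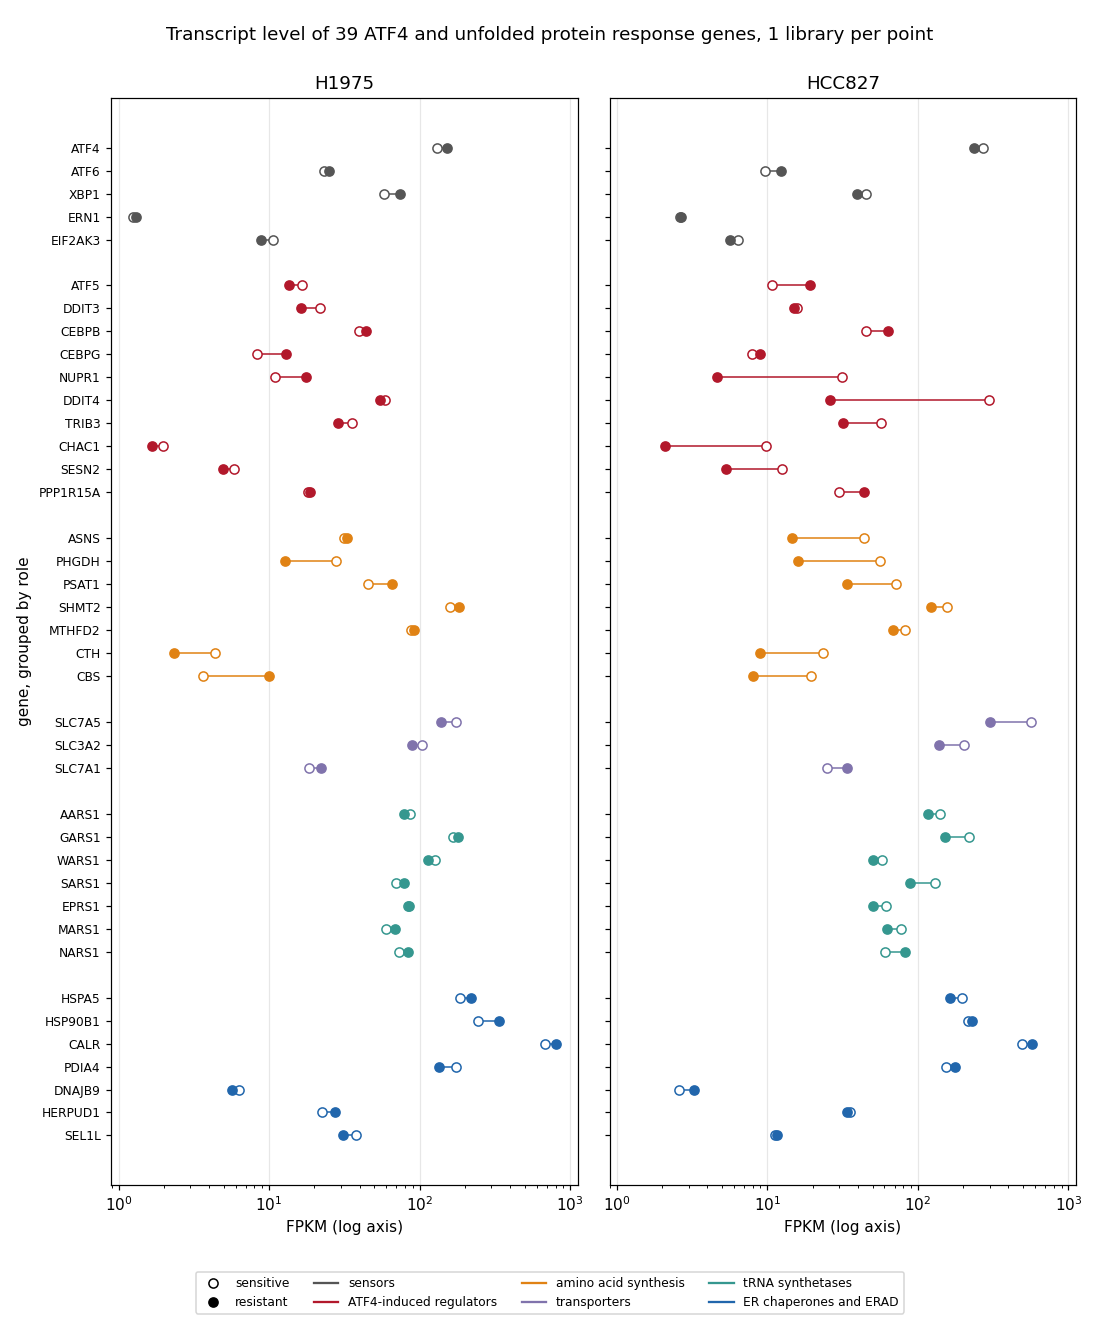
FPKM of the 39 genes (log axis) in the sensitive (open) and resistant (filled) library of H1975 and HCC827, 1 library per point, coloured by role. The longest gaps are in HCC827, where DDIT4 went from 296 to 26.0 FPKM, while most H1975 pairs of points lie close together.

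In HCC827, 9 of the 39 members were called lower in the gefitinib-resistant library and none was called higher. This was 23.1% of the members, against 11.0% of all genes considered in that line called lower and 7.05% called higher. Since the members were chosen with earlier results of these data known, these shares are a description and not a test. All 9 were ATF4 targets, 4 of them regulators and 5 of them enzymes of amino acid synthesis. In H1975, 1 member was called higher and 1 lower, 2.56% each, against 3.21% and 8.56% of all genes considered, so that the members' share there was not above the background. The higher member, CBS, was not called when a near-identical copy was added to it. At a lower threshold of 1.5-fold, 14 members (35.9%) were lower and 1 was higher in HCC827, against 19.1% and 15.3% of all genes. The same threshold took in 2 lower and 3 higher members in H1975, against 14.8% and 9.31% of all genes.

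The stress sensors and their transcription factors differed by less than 1.5-fold in both lines. ATF4 had 129.8 FPKM in sensitive and 153 FPKM in resistant H1975, and 272 and 235 FPKM in HCC827. Its log2 ratio was 0.25 [0.19, 0.31] in H1975 and −0.27 [−0.33, −0.20] in HCC827, so the ATF4 transcript was slightly higher in one resistant library and slightly lower in the other. XBP1, the factor spliced by IRE1, showed the same arrangement, with 57.7 and 74.2 FPKM in H1975 and 45.5 and 39.3 FPKM in HCC827, and ratios of 0.37 [0.29, 0.45] and −0.26 [−0.40, −0.12].

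ATF6, the membrane-bound sensor that is cleaved to a transcription factor, was slightly higher in both resistant libraries. Its level was 23.2 and 24.9 FPKM in H1975 and 9.59 and 12.4 FPKM in HCC827, with ratios of 0.18 [0.09, 0.27] and 0.31 [0.18, 0.45]. EIF2AK3, which encodes PERK, was slightly lower in both, at 10.6 and 8.87 FPKM in H1975 (−0.23 [−0.36, −0.10]) and 6.35 and 5.63 FPKM in HCC827 (−0.27 [−0.51, −0.04]). ERN1, the gene of IRE1, was the least abundant sensor and among the least changed members. It had 1.24 and 1.31 FPKM in H1975 and 2.63 and 2.67 FPKM in HCC827, and its intervals included 0 in both lines (0.11 [−0.14, 0.36] and −0.03 [−0.41, 0.35]). The gene lengths given for ATF6 and ERN1 differ 2.05 and 2.29 times between the lines, so their levels are compared only within a line.

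Among the regulators, DDIT4 had the widest difference of any member. DDIT4 (Gene ID 54541) encodes REDD1, an inhibitor of mTORC1 that is induced by stress and low oxygen. It had 296 FPKM (5637 counts) in sensitive and 26.0 FPKM (499 counts) in resistant HCC827, 11.8-fold lower, with a log2 ratio of −3.57 [−3.70, −3.43]. In H1975 it had 59.3 and 54.9 FPKM (−0.10 [−0.18, −0.01]). The sensitive HCC827 library therefore stood above the other 3, which lay between 26.0 and 59.3 FPKM.

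NUPR1 (Gene ID 26471), a small stress-induced chromatin protein, was 7.01-fold lower in resistant HCC827, with 31.2 FPKM (294 counts) in sensitive and 4.63 FPKM (44 counts) in resistant cells (−2.81 [−3.30, −2.35]). In H1975 it went the other way, from 11.0 to 17.7 FPKM (0.70 [0.44, 0.95]), a difference of 1.62-fold that was not called. The intervals of the lines did not overlap, but with 1 library each the difference between lines was not tested.

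CHAC1 (Gene ID 79094), an enzyme that degrades glutathione, had 9.84 FPKM (200 counts) in sensitive and 2.10 FPKM (43 counts) in resistant HCC827, 4.88-fold lower (−2.29 [−2.80, −1.80]). It was low in both H1975 libraries, at 1.96 and 1.67 FPKM, and its interval there included 0 (−0.23 [−0.75, 0.28]). SESN2 (Gene ID 83667), a leucine-binding inhibitor of mTORC1 signalling, was 2.44-fold lower in HCC827, with 12.5 and 5.34 FPKM (−1.29 [−1.53, −1.05]). In H1975 SESN2 had 5.81 and 4.93 FPKM (−0.22 [−0.42, −0.03]). For both genes the resistant HCC827 value came close to the H1975 values, and the sensitive HCC827 value was the highest of the 4.

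The other 6 regulators were not called in either line. TRIB3, a pseudokinase that restrains ATF4, was 1.88-fold lower in HCC827 (57.0 and 31.6 FPKM) and 1.25-fold lower in H1975 (35.4 and 28.8 FPKM). DDIT3, which encodes the proapoptotic factor CHOP, had 21.9 and 16.4 FPKM in H1975 (−0.39 [−0.60, −0.18]) and 15.6 and 14.9 FPKM in HCC827 (−0.11 [−0.44, 0.21]). ATF5, a relative of ATF4, stood against the trend in HCC827, with 10.7 and 19.3 FPKM (0.79 [0.56, 1.01]), and was 1.24-fold lower in H1975. It was the single member at least 1.5-fold higher in resistant HCC827. PPP1R15A, which encodes the eIF2alpha phosphatase subunit GADD34, was 1.40-fold higher in HCC827 and 1.05-fold higher in H1975. CEBPB was 1.35-fold and 1.11-fold higher in the same order. CEBPG, a dimer partner of ATF4, was 1.59-fold higher in H1975 (8.26 and 13.1 FPKM, 0.67 [0.53, 0.81]) and 1.09-fold higher in HCC827. The regulators in HCC827 thus spanned log2 ratios from −3.57 to 0.79 and did not move as one block.

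**Figure D2:**
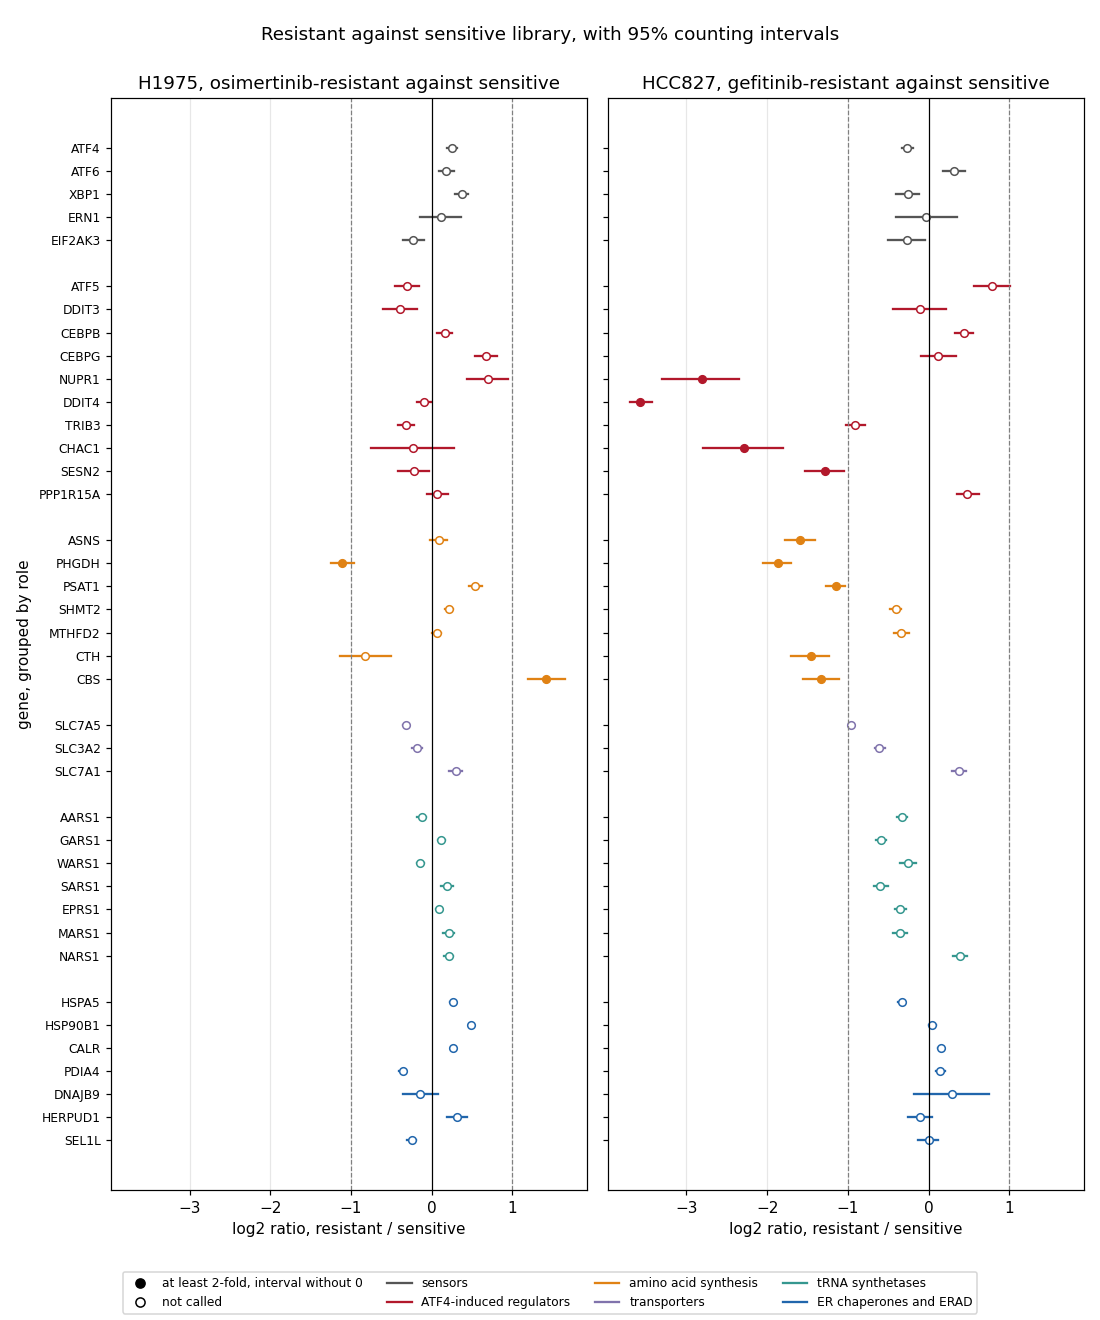
Log2 ratio of the resistant to the sensitive library for each of the 39 genes in H1975 and HCC827, with 95% counting intervals as horizontal bars; filled points were called and dashed lines mark 2-fold. The 9 filled points on the lower side in HCC827 are regulators and amino acid enzymes, and the ER genes lie between −0.33 and 0.29.

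The enzymes of amino acid and one-carbon synthesis were the group most uniformly lower in resistant HCC827. All 7 had intervals below 0 there, against 35.1% of all genes considered, and 5 were called lower (71.4%, against 11.0%). The median log2 ratio was −1.34, against 0.00 over all genes considered. In H1975 the median was 0.09, with 3 intervals above 0, 2 below and 2 that included 0. The shares above and below, 42.9% and 28.6%, compare with 36.4% and 36.8% of all genes considered in that line.

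PHGDH (Gene ID 26227), which opens serine synthesis from a glycolytic intermediate, was the only member called lower in both lines. That is 2.56% of the members, against 3.49% of the 10961 genes considered in both lines, so the members' share was not above the background. PHGDH had 28.0 FPKM (1251 counts) in sensitive and 12.8 FPKM (577 counts) in resistant H1975, 2.16-fold lower (−1.11 [−1.25, −0.96]). In HCC827 it had 56.0 FPKM (1234 counts) and 15.9 FPKM (353 counts), 3.67-fold lower (−1.87 [−2.05, −1.70]). Both resistant libraries lay below both sensitive ones. PSAT1 (Gene ID 29968), the next enzyme of that route, was 2.23-fold lower in HCC827 with 71.8 and 33.8 FPKM (−1.15 [−1.27, −1.04]). In H1975 PSAT1 was 1.45-fold higher with 45.4 and 65.3 FPKM (0.54 [0.46, 0.62]), so adjacent steps of serine synthesis had opposite ratios in that line.

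ASNS (Gene ID 440), asparagine synthetase, was 3.02-fold lower in HCC827, with 43.6 FPKM (923 counts) and 14.6 FPKM (321 counts) and a ratio of −1.59 [−1.78, −1.41]. In H1975 it stayed at 31.4 and 32.7 FPKM, with an interval that included 0 (0.09 [−0.02, 0.19]). The mitochondrial one-carbon enzymes SHMT2 and MTHFD2 moved less. SHMT2 had 160 and 183 FPKM in H1975 and 157 and 123 FPKM in HCC827, 1.33-fold lower in the latter. MTHFD2 had 87.8 and 91.3 FPKM in H1975 and 82.6 and 67.9 FPKM in HCC827, 1.26-fold lower in the latter.

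The pair of transsulfuration enzymes, which make cysteine from homocysteine, were both lower in HCC827. CTH (Gene ID 1491), cystathionine gamma-lyase, had 23.3 FPKM (543 counts) and 9.0 FPKM (207 counts), 2.75-fold lower (−1.46 [−1.70, −1.23]). It was also lower in resistant H1975, at 4.38 and 2.35 FPKM (237 and 133 counts, −0.83 [−1.14, −0.51]), a 1.77-fold difference that was not called. PHGDH and CTH were the 2 members at least 1.5-fold lower in both lines, and no member was at least 1.5-fold higher in both. The 2 genes are 5.13% of the members, against 6.45% of all genes considered in both lines.

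CBS (Gene ID 875), cystathionine beta-synthase, was the only member called higher in H1975, and that call was lost when the counts of a near-identical copy were added. CBS alone had 3.66 FPKM (218 counts) in sensitive and 9.92 FPKM (578 counts) in resistant H1975, 2.67-fold higher (1.42 [1.19, 1.65]). Its copy, listed as LOC102724560, had 897 and 628 counts in the same libraries. Summed, the 2 loci had 1115 and 1206 counts, a ratio of 0.12 [0.00, 0.24], and not called. In HCC827 CBS alone had 19.6 and 8.03 FPKM (559 and 232 counts, −1.34 [−1.56, −1.11]), and the summed loci had 749 and 284 counts, 2.77-fold lower (−1.47 [−1.67, −1.27]). The lower level in resistant HCC827 thus held for the sum, and the higher level in resistant H1975 did not.

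The amino acid transporters gave a smaller difference. SLC7A5, the light chain LAT1 that carries leucine and other large neutral amino acids, had the highest mean FPKM over the 4 libraries of any ATF4 target, with 175 and 139 FPKM in H1975 and 568 and 303 FPKM in HCC827. It was 1.95-fold lower in resistant HCC827 (−0.96 [−0.99, −0.93]), just short of the call, and 1.25-fold lower in resistant H1975. Its heavy chain SLC3A2 was 1.52-fold lower in HCC827 (204 and 138 FPKM) and 1.14-fold lower in H1975 (104 and 89.1 FPKM). SLC7A1, a carrier of cationic amino acids, was 1.30-fold and 1.23-fold higher in the resistant libraries of HCC827 and H1975.

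The tRNA synthetases, which charge tRNAs with amino acids, were narrowly spread. In HCC827, 6 of 7 had intervals below 0 (85.7%, against 35.1% of all genes considered) and the median was −0.35. GARS1 (220 and 152 FPKM) and SARS1 (129.8 and 89.2 FPKM) were each 1.51-fold lower, AARS1, WARS1, EPRS1 and MARS1 were 1.20-fold to 1.28-fold lower, and NARS1 was 1.31-fold higher. In H1975 the group ran from −0.14 for WARS1 to 0.21 for MARS1 and NARS1, with a median of 0.12. None of the 7 was called in either line.

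The ER chaperones and ER-associated degradation genes differed by less than 1.5-fold in both lines. HSPA5, the gene of the chaperone BiP that holds the sensors inactive, had 185 and 219 FPKM in H1975 (0.26 [0.23, 0.29]) and 198 and 163 FPKM in HCC827 (−0.33 [−0.38, −0.29]). CALR, the lectin chaperone calreticulin, had the highest mean level of the 39 genes, with 682 and 811 FPKM in H1975 and 495 and 571 FPKM in HCC827, and was 1.20-fold and 1.11-fold higher in the resistant libraries. HSP90B1, the gene of GRP94, was 1.40-fold higher in resistant H1975 (243 and 337 FPKM) and 1.03-fold higher in HCC827 (215 and 230.4 FPKM). HSPA5 and HSP90B1 both carry the ER stress response element printed above, and had ratios on different sides of 0 in HCC827.

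PDIA4, a protein disulfide isomerase, was 1.28-fold lower in H1975 and 1.10-fold higher in HCC827. HERPUD1, a degradation component, was 1.24-fold higher in H1975 and had 35.4 and 34.1 FPKM in HCC827, where its interval included 0. SEL1L, the adaptor of the HRD1 ubiquitin ligase, had 11.2 and 11.6 FPKM in HCC827, a ratio of 0.00 [−0.13, 0.12] that placed it among the least changed members. In H1975 it had 37.7 and 31.0 FPKM, 1.19-fold lower. DNAJB9, a cochaperone of BiP, was the least abundant of the group at 2.59 to 6.28 FPKM, and its intervals included 0 in both lines.

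ATF4 targets and ER genes were also set side by side. The median log2 ratio in HCC827 was −0.59 over 27 ATF4 targets and 0.04 over 7 ER genes, and 18 of the 27 targets lay below HSPA5, the lowest ER gene. In H1975 the medians were 0.07 and 0.26, and 3 of 27 targets (PHGDH, CTH and DDIT3) lay below PDIA4, the lowest ER gene. Counted against the ER median instead, 22 of 27 targets lay below it in H1975 and 21 of 27 in HCC827. These similar counts do not make the lines alike, because the cutoff was 0.26 in H1975 and 0.04 in HCC827. The shares of all genes below the ER medians and below the lowest ER genes were not counted, so these counts have no background. The median over all genes considered was 0.00 in both lines. ATF4 targets held 0.735% of all counts in sensitive and 0.477% in resistant HCC827, and 0.427% and 0.425% in H1975. ER genes held 0.299% and 0.311% in HCC827 and 0.357% and 0.408% in H1975. SLC7A5 alone gave 35.6% and 29.3% of the ATF4 target counts in HCC827; without it the shares were 0.473% and 0.338%.

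**Figure D3:**
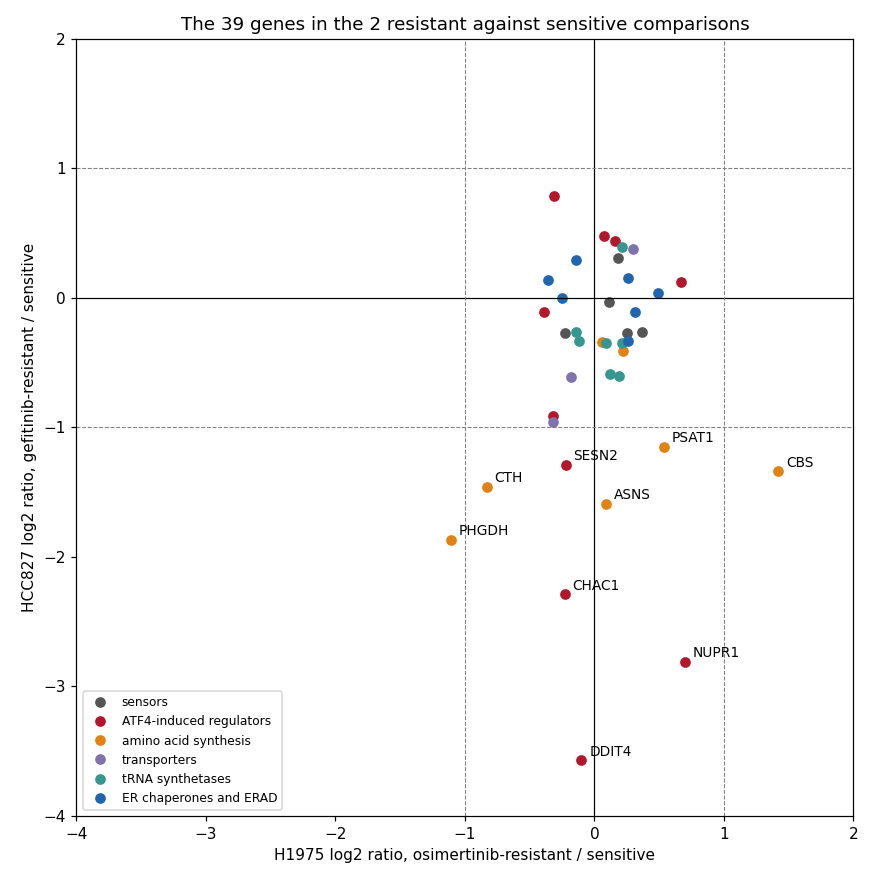
Log2 ratio of the resistant to the sensitive library in H1975 (x axis) against HCC827 (y axis) for the 39 genes, coloured by role, with called genes named and dashed lines at 2-fold. PHGDH is the only gene beyond the lower line on both axes; DDIT4, CHAC1 and ASNS lie low in HCC827 and near 0 in H1975, and the CBS position in H1975 is 0.12 when its copy is added.

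Across the 4 libraries, sensitive HCC827 held the highest FPKM for 16 of 27 ATF4 targets, including all 9 genes called lower in that line, and for 1 of 7 ER genes (HERPUD1). Of the 9 genes, 4 had their lowest level in resistant HCC827 and 4 in resistant H1975. A lower call in HCC827 already requires the sensitive library to exceed the resistant one, so the highest library of these 9 genes is partly fixed by the call. The share of all genes with their highest level in sensitive HCC827 was not counted. Levels across lines come from files whose gene lengths differ for some members and have no replicate, so this is a description only.

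Of the 39 members, 11 had an interval above 0 in H1975 and below 0 in HCC827 (ATF4, XBP1, NUPR1, PSAT1, SHMT2, CBS, GARS1, SARS1, EPRS1, MARS1 and HSPA5), and ATF5 and PDIA4 had the reverse. These were 28.2% and 5.13% of the members, against 8.77% and 9.30% of the 10961 genes considered in both lines. Whether an interval excludes 0 depends on a gene's counts, and these shares were not matched for level. Most of these ratios were under 1.5-fold. Only NUPR1 and CBS reached 1.5-fold in opposite directions, CBS not once its copy was added, and 2.34% of all genes did so.

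A test over both lines, with the cell line as a block, called no member and no other gene. With edgeR's quasi-likelihood test, 0% of 13036 genes had a Benjamini-Hochberg adjusted p below 0.05. An unadjusted p below 0.05 was found for 10.4% of these genes and for 2 of 39 members, PHGDH and CTH. PHGDH had a log2 ratio of −1.47 over the lines, lower in both, with an unadjusted p of 0.00498 and an adjusted p of 0.235 by edgeR's quasi-likelihood test. DESeq2 with the same block called 448 genes and 1 member, PHGDH, with an adjusted p of 0.0065; the edgeR alternatives gave adjusted p-values from 0.251 to 1. CTH had a ratio of −1.13, also lower in both lines, with an adjusted p of 0.381 in edgeR. DDIT4 had a ratio of −1.81 and an adjusted p of 0.594 in edgeR, its 2 lines being far apart. This test has 1 residual degree of freedom per gene and serves only as a screen for changes common to the lines.

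Other genes of the network were examined from 7 lists with 121 different genes. These lists too were chosen with earlier results of these data known, and 116 genes were considered in each line. In HCC827 9 of them were called lower and 5 higher, with a median of 0.04, and in H1975 3 were lower and 2 higher, with a median of 0.05. The HCC827 shares, 7.76% lower and 4.31% higher, and the H1975 shares, 2.59% lower and 1.72% higher, were all below those of all genes considered. In HCC827 7 of the 9 lower genes belonged to the list of other ATF4-linked genes, where 7 of 23 considered (30.4%, against 11.0% of all genes) were lower and 1 (4.35%, against 7.05%) higher (median −0.32). In H1975 that list had 2 lower (8.70%, against 8.56% of all genes) and 1 higher (4.35%, against 3.21%), with a median of 0.14.

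The ATF4-linked genes lower in resistant HCC827 included transporters and metabolic enzymes. SLC6A9, a glycine transporter, had 7.71 and 1.67 FPKM, 4.79-fold lower (−2.26 [−2.69, −1.85]). SLC7A11, the cystine carrier, was 2.63-fold lower with 6.40 and 2.54 FPKM (−1.39 [−1.60, −1.19]). The mitochondrial enzymes PCK2 and GPT2, a phosphoenolpyruvate carboxykinase and an alanine transaminase, were 2.90-fold and 2.30-fold lower. ADM2 was 2.72-fold and the angiogenic factor gene VEGFA 2.49-fold lower. GADD45A, a stress-induced regulator of growth, was 2.34-fold higher (17.8 and 43.3 FPKM).

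JDP2, a leucine zipper repressor that binds ATF sites, was lower in both lines, 7.90-fold in H1975 (8.35 and 1.01 FPKM) and 3.82-fold in HCC827 (4.51 and 1.26 FPKM). GDF15, a secreted stress cytokine, was 22.8-fold lower in H1975 (24.1 and 1.05 FPKM) and 1.20-fold lower in HCC827. XPOT, which exports tRNA from the nucleus, was 2.10-fold higher in H1975 (47.1 and 96.6 FPKM) and 1.09-fold lower in HCC827. The H1975 comparison thus called 3 ATF4-linked genes outside the members, of which JDP2 was called in HCC827 too.

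No other cytosolic tRNA synthetase (0 of 13) and no mitochondrial one (0 of 17) was called in either line, and their HCC827 medians were 0.09 and 0.18. Of all genes considered, 8.56% were lower and 3.21% higher in H1975, and 11.0% and 7.05% in HCC827. Among other serine, one-carbon and proline enzymes, ALDH1L2 was 2.33-fold higher in H1975, and GLDC, which cleaves glycine, had 8 and 64 counts in HCC827 (2.93 [1.87, 4.20]). The list's medians were −0.05 in H1975 and 0.03 in HCC827.

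Of other ER chaperones and oxidoreductases, none of 17 considered was called in H1975. In HCC827 none of 18 was lower (against 11.0% of all genes) and 2 were higher (11.1%, against 7.05%). These were TXNDC5 by 2.04-fold (52.9 and 112 FPKM) and ERO1B, an ER oxidase, from 15 to 79 counts (2.33 [1.52, 3.23]). Neither rise was particular to HCC827. In H1975 TXNDC5 was 1.65-fold higher, and ERO1B went from 12 to 65 counts (2.45 [1.54, 3.47]) but stayed under 1 FPKM and was not considered. The median in HCC827 was 0.19, and HYOU1, a large ER chaperone, was just short of a call there with 72.5 and 144 FPKM. Of other degradation and translocation genes, only OS9 was called in either line. It was 1 of 16 considered in HCC827 (6.25%, against 11.0% of all genes called lower). OS9, a lectin that delivers misfolded glycoproteins to HRD1, was 16.7-fold lower there, with 677 FPKM (20555 counts) and 42.0 FPKM (1288 counts). In H1975 OS9 had 115 and 93.5 FPKM. Of eIF2alpha kinases, eIF2B subunits and other transducers, ATF6B, a relative of ATF6, was 2.96-fold lower in HCC827 (32.7 and 11.5 FPKM). CREB3L1, another membrane-bound factor, was 4.77-fold higher from a low level (0.57 and 2.80 FPKM) and was 1.91-fold higher in H1975 (38.5 and 72.9 FPKM). In HCC827 ATF6B and CREB3L1 were each 5.26% of the 19 considered, against 11.0% of all genes lower and 7.05% higher.

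**Figure D4:**
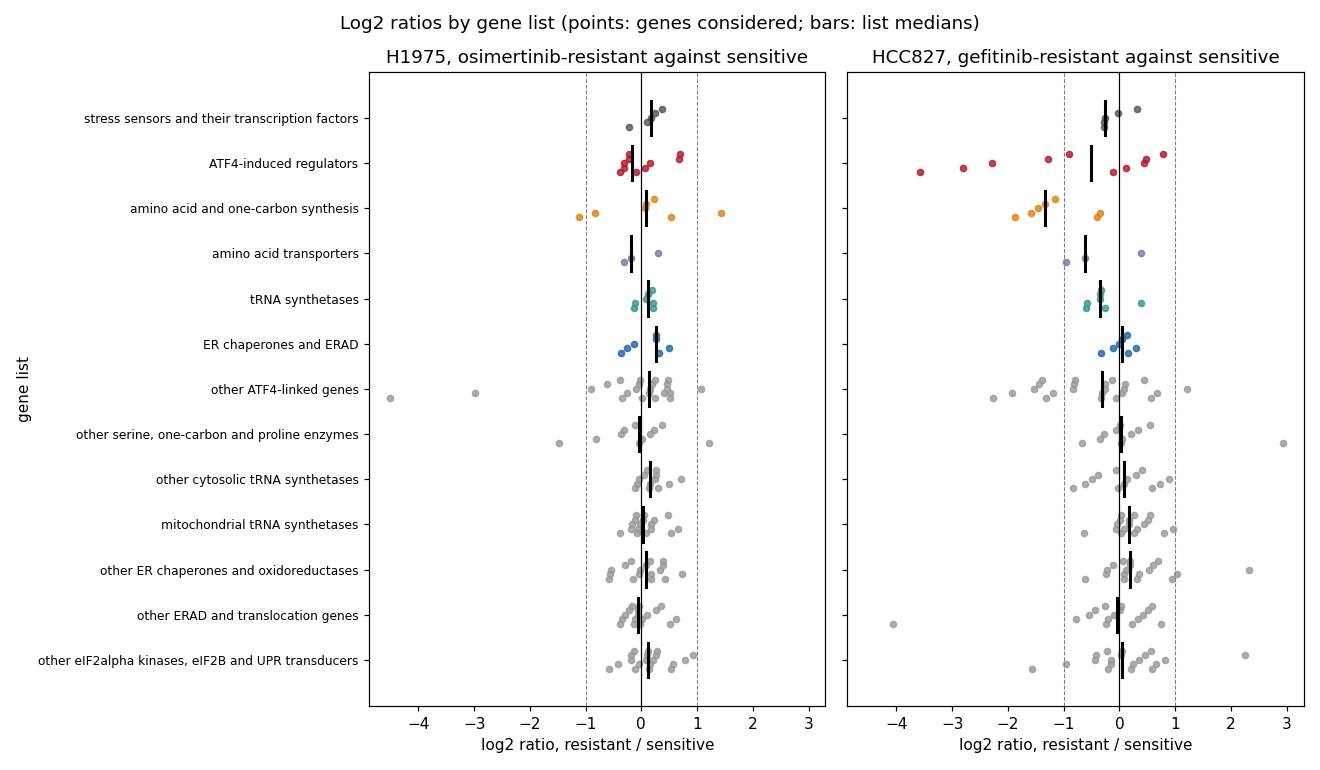
Log2 ratios of resistant to sensitive libraries by gene list for the genes considered in H1975 and HCC827; points are genes, black bars list medians, dashed lines 2-fold, colours the 6 member lists and grey the other lists. The amino acid synthesis median of −1.34 in HCC827 stands lowest of the 13 lists, and OS9 is the single point near −4 among degradation genes in that line.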

How the data were processed

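Total RNA of 4 cell samples was made into libraries with an mRNA kit, per the labels, and 1 deposited table per library was analysed. The submitters' processing notes name HISAT2, Bowtie2, RSEM and build hg19, and the sources used here give neither settings nor use of strand. The deposited tables give RSEM expected counts, which were not normalized by the authors, FPKM values scaled by the authors, and gene lengths in bases, per NCBI Gene ID; a gene without a row was set to 0. Symbols and promoters came from RefSeq tables of GRCh38.p14, used for names, sequences and gene order only. Expected counts were rounded. They were not whole in every library for 12 of 39 members.

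Within each line, TMM factors (edgeR 4.0.16) scaled the pair (1.005 and 0.995 in H1975, 0.981 and 1.019 in HCC827), and ratios had exact Clopper-Pearson intervals of the conditional binomial at 95%, with scipy 1.17.1. Reads are not unique molecules, so intervals cover counting error only. The test over both lines was edgeR's quasi-likelihood test on genes listed in all 4 files, with filterByExpr and Benjamini-Hochberg adjustment, two-sided; pairs come from the shared cell line. Alternatives were DESeq2 1.42.0, other scalings, filters and fold thresholds, and a fit without the block. Scripts were tested on simulated data. Separate cultures are not described, so p-values measure only the spread between these libraries.

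The members and lists were chosen with earlier results of these data known. Named with values in all libraries were 7 preset genes (ATF4, ATF6, XBP1, ERN1, EIF2AK3, HSPA5 and DDIT3), each member called in a line or at least 1.5-fold in both, the 2 least changed and the 2 most abundant; other pathway genes were named where called. HYOU1 was named after its values were seen, and 1 pathway gene is not reported here by name.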

Additional observations from a re-analysis of the deposited data

Results flagged for a closer look

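NUPR1 and CBS were at least 1.5-fold different in opposite directions in the 2 lines, with intervals that excluded 0 in each. NUPR1 had a log2 ratio of 0.70 in H1975 and −2.81 in HCC827. CBS had a log2 ratio of 1.42 in H1975 and −1.34 in HCC827, and with its copy LOC102724560 added the H1975 value was 0.12. Each line has 1 pair of libraries, so neither difference between the lines was tested.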

How the results depend on the processing

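The counts of members called at 2-fold, 2 in H1975 and 9 in HCC827, were the same with library totals, with DESeq2 size factors, with no filter, with a filter of 5 FPKM and 100 counts, and on the log2(FPKM + 1) scale. At a threshold of 1.5-fold the counts were 5 in H1975 (3 higher, 2 lower) and 15 in HCC827 (1 higher, 14 lower), and at 4-fold 0 in H1975 (0 higher, 0 lower) and 3 in HCC827 (3 lower). Summing CBS with its copy, an alternative chosen after the data were seen, left 1 call in H1975 (0 higher), with a CBS ratio of 0.12, and 9 in HCC827. Of 57 single-gene values recomputed under the alternatives, 56 kept their direction and call, and that CBS value was the exception. The ATF4 target medians ran from 0.05 to 0.09 in H1975 and from −0.59 to −0.53 in HCC827, and the ER medians from 0.25 to 0.26 and from 0.02 to 0.10. Over both lines, DESeq2 called 1 member and every edgeR alternative called 0, with no replicate block included. Leaving out a line was not run, since 1 pair has no residual degrees of freedom. Depth in HCC827 was lower, which widens intervals there, as for DNAJB9 with 72 and 92 counts.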

Other observations

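The genes next to OS9 on chromosome 12, examined after its value was seen, had a step in sensitive HCC827. In the order of the RefSeq table, SHMT2, MARS1, DDIT3 and DCTN2 come before PIP4K2C and OS9, and AGAP2, TSPAN31, CDK4 and METTL1 come after. PIP4K2C had 380.3 FPKM in sensitive and 18.4 FPKM in resistant HCC827, a log2 ratio of −4.43. CDK4, the G1 kinase gene, had 1141 and 106 FPKM (−3.48), TSPAN31 67.1 and 5.72 FPKM (−3.61) and AGAP2 14.3 and 1.57 FPKM (−3.25). Of 18 protein-coding genes from SHMT2 to CTDSP2 that reached 5 FPKM in a library, these 4 and OS9 were the 5 called lower in HCC827. The stretch was picked by OS9, which is itself in that count. Of all genes considered in that line, 11.0% were called lower and 7.05% higher. B4GALNT1 and DTX3, which lie between PIP4K2C and OS9, were called higher. B4GALNT1 had a ratio of 1.84, and DTX3 had 2 and 34 counts (4.02 [2.06, 7.12]). The members SHMT2, MARS1 and DDIT3 lie outside the stretch, with HCC827 ratios of −0.41, −0.35 and −0.11, and METTL1 on its other side had 0.49. In H1975 CDK4 had 142 and 154 FPKM, and PIP4K2C was lower there too (44.0 and 19.9 FPKM). The cause was not tested.

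Of 12 cytosolic and mitochondrial chaperone genes, 8 had intervals above 0 and 3 below in HCC827, against 34.6% and 35.1% of all genes considered, and the median was 0.38. None of the 12 was called in that line. In H1975 5 had intervals above 0 and 7 below (41.7% and 58.3%, against 36.4% and 36.8% of all genes), with a median of −0.08. In that line 1 of the 12, HSPB1, was called lower (8.33%, against 8.56% of all genes). HSPA8, a constitutive chaperone, had 604 and 897 FPKM in HCC827 and 799 and 1009 FPKM in H1975. The mitochondrial chaperone HSPA9 had 80.7 and 159 FPKM in HCC827 and 142 and 135 FPKM in H1975. HSPB1, a small heat shock protein gene, was lower in both lines, 2.29-fold in H1975 (1304 and 565 FPKM) and 1.69-fold in HCC827 (2095 and 1292 FPKM).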
